A study of Mus musculus with 18 samples.

Results

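The Schlafen genes are a family of related mouse genes, several of which are induced by interferon. The 7 genes whose symbol in the deposited table is Slfn1, Slfn2, Slfn3, Slfn4, Slfn5, Slfn8 or Slfn9 were taken as its members, out of 18204 listed genes. The members were described in J774.1 cells, a mouse macrophage cell line, by RNA sequencing of 18 samples in 6 groups of 3 biological replicates. Wildtype cells and Ctbp1/2 double knockout cells (dKO) were each given a PBS/DMSO vehicle, 1.5 mM MTOB or 0.25 mM 4-Cl-HIPP for 4 h. CTBP1 and CTBP2 are transcriptional corepressors with a dehydrogenase domain, and both compounds are inhibitors of that domain. The dKO cells were made with CRISPR-Cas9 and grown out from single cells, so the loss of both genes and the properties of a clone cannot be told apart. The doses of MTOB and 4-Cl-HIPP differed, and so did the solvents of their stocks, PBS for MTOB and DMSO for 4-Cl-HIPP. In each genotype both compounds were set against the same vehicle samples, and the part of the solvent was not tested. The values of the compounds are therefore given side by side without a comparison between them.

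Schlafen proteins are found in mammals mainly in immune cells, and their name, from the German for sleeping, goes back to the growth arrest caused by Slfn1 in T cells. The mouse members fall into 3 groups by length. Slfn1 and Slfn2 are the shortest, Slfn3 and Slfn4 are intermediate, and Slfn5, Slfn8 and Slfn9 carry an additional helicase-like part. Slfn2 keeps T cells and monocytes in a resting state, and Slfn4 is known as a gene of the myeloid lineage. In the GENCODE M39 annotation the coding sequences held 337 codons in Slfn1, 378 in Slfn2, 602 in Slfn4, 640 in Slfn3, 884 in Slfn5 and 910 in both Slfn8 and Slfn9 without the stop codon. All 7 genes lie in 1 stretch of 267.0 kb on chromosome 11 of GRCm39, from the start of Slfn5 at 82842100 to the end of Slfn3 at 83109101. In this stretch Slfn5 (chr11:82842100-82855666) is followed by Slfn9 (chr11:82868552-82882656), Slfn8 (chr11:82892984-82911669), Slfn2 (chr11:82955609-82961504), Slfn1 (chr11:83007615-83013496), Slfn4 (chr11:83066012-83081042) and Slfn3 (chr11:83082123-83109101). Slfn8 and Slfn9 are on the minus strand and the other members on the plus strand.

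Interferon acts on many promoters through the interferon-stimulated response element, whose core was searched here, on both strands, as GAAA and GAAA with any 2 bases between them. RefSeq promoter windows of 300 bases (250 before to 50 after the start) were matched for all 7 members, with 2 windows for Slfn8, and each was found once in GRCm39. The core was present in the windows of 3 of 7 members, Slfn5, Slfn8 and Slfn9, and in 3.99% of all 27025 genes with a window. Of 1 window per gene, the bases up to the first one that any GENCODE M39 exon covers are shown because they hold the matches, 5′ to 3′ on the strand of the gene, with the core in capitals. They cover chr11:82842678-82842810 for Slfn5, chr11:82911670-82911886 for Slfn8 and chr11:82882657-82882906 for Slfn9.
Slfn5: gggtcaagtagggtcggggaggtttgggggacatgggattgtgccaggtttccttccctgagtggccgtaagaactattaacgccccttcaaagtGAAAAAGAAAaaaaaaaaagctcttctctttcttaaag
Slfn8: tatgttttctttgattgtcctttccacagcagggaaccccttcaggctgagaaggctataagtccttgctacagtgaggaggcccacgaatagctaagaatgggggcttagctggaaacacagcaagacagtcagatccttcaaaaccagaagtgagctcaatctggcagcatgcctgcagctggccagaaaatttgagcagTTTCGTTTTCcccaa
Slfn9: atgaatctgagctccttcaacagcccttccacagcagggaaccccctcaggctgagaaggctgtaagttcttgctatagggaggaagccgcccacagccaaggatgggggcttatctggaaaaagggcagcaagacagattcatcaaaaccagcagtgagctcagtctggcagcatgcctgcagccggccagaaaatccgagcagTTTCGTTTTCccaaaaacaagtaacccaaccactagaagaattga
The Slfn5 match began at base -155, counted back from the RefSeq start. Other GENCODE M39 transcripts of Slfn5 start further upstream, so the stretch shown lies inside the annotated gene, in an intron of these transcripts. The Slfn8 and Slfn9 matches had the same 10 letters, on the opposite strand, and began at bases -48 and -45. Counted from the start of the second Slfn8 window, the same match began at base -136. The windows of Slfn1, Slfn2, Slfn3 and Slfn4 held no match, and the Slfn2 window lay wholly inside the first exon of its GENCODE M39 model. The palindromic gamma-activated site, searched as TTC and GAA with any 3 bases between them, was in 0 of 7 members and in 9.55% of genes. These are matches of letters, and binding was not measured.

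Levels were measured as TPM, a transcript abundance that accounts for transcript length and the total of each sample, and so can be compared between genes. Slfn4 was the most abundant member in the wildtype vehicle samples with 25.06 TPM ± 0.93 (SD, n = 3), before Slfn9 with 17.29 ± 0.42, Slfn3 with 15.23 ± 1.73, Slfn2 with 8.87 ± 1.57, Slfn8 with 8.57 ± 0.85 and Slfn5 with 2.58 ± 0.62. Slfn9 and Slfn3 did not overlap in their samples, although the lowest Slfn9 value (16.89 TPM) and the highest Slfn3 value (16.88 TPM) nearly met, and Slfn2 and Slfn8 overlapped. Slfn1 was listed at 0 TPM in 15 of 18 samples. Its other values were 0.236 and 0.132 TPM in dKO vehicle replicates 1 and 3 and 0.126 TPM in dKO MTOB replicate 3. With a mean normalized count of 0.208, Slfn1 was below the filter at 0.222 and was not tested, so 6 of 7 members entered the tests. The mean normalized counts of these 6 ranged from 128.9 for Slfn3 to 459.1 for Slfn4.

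Summed over the members, Schlafen transcripts came to 77.6 TPM ± 2.4 (SD, n = 3) in wildtype vehicle, 130.7 ± 2.3 in wildtype MTOB and 76.3 ± 3.6 in wildtype 4-Cl-HIPP samples. In dKO cells the sums were 118.9 ± 9.5 with vehicle, 153.6 ± 12.9 with MTOB and 106.4 ± 1.6 with 4-Cl-HIPP. Slfn4 held the largest mean share of the sum in 5 of the 6 groups. In dKO MTOB samples Slfn2 held 26.4% ± 1.3 and Slfn4 24.9% ± 1.8. Slfn2 made up 11.4% ± 1.8 of the sum in wildtype vehicle and 23.5% ± 1.5 in wildtype MTOB samples.

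**Figure D1:**
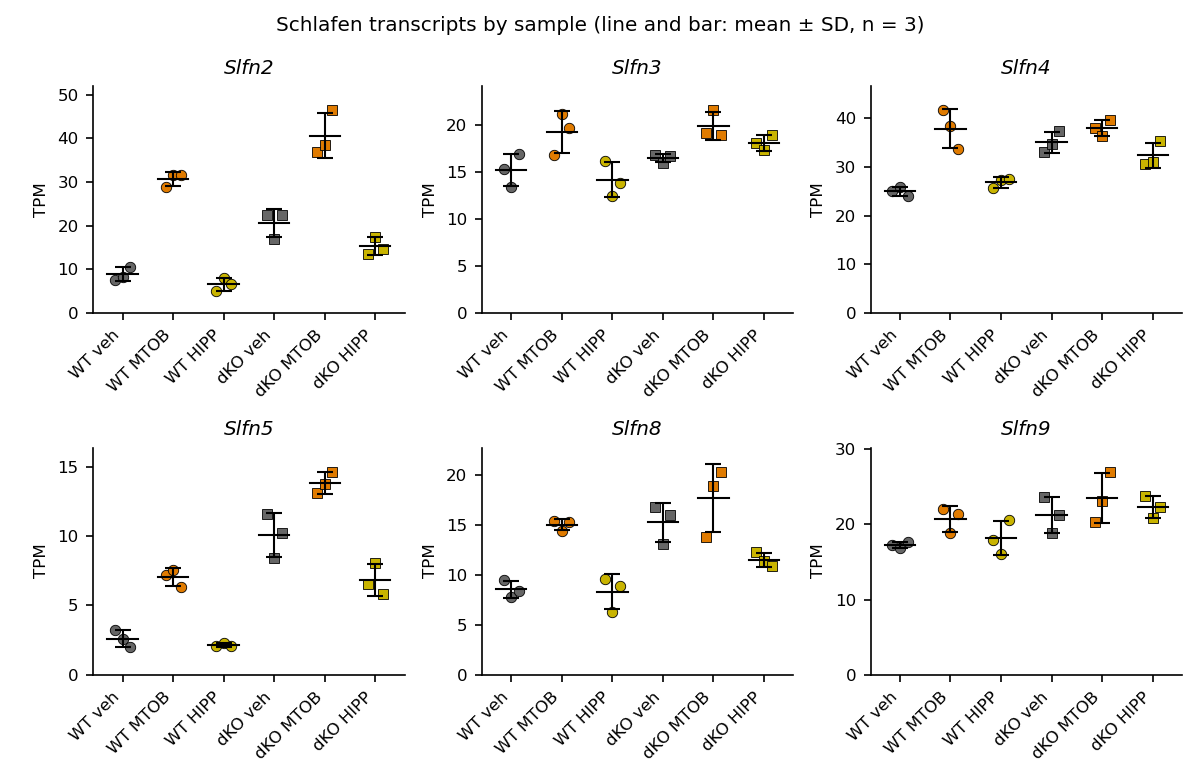
TPM (linear axis from 0) of the 6 tested Schlafen members in each of the 18 samples, with 1 panel per gene and 1 point per sample; the line and bar are the mean and SD of 3 replicates. Slfn2 and Slfn5 moved most between groups, with group means 6.16 and 6.44 times apart at most, while those of Slfn3 and Slfn9 were at most 1.4 and 1.36 times apart.

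The targeted genes were checked against the labels. Ctbp1 was at 218 TPM in wildtype and 25.1 TPM in dKO vehicle samples, a log2 fold change of -3.07 with an adjusted p of 1.61e-10 (limma). Ctbp2 was at 92.6 and 75.9 TPM, a log2 fold change of -0.28 with an adjusted p of 0.00427 (limma), so most Ctbp2 transcript remained. The paper reports a frameshift and an early stop in both genes and the loss of both proteins on a western blot. Transcript levels do not measure either of these. Replicates correlated with r between 0.983 and 0.987. Of the 10 macrophage markers, 9 were in the table and none was at 0 in any group, with Csf1r, the receptor of a macrophage growth factor, between 612.3 and 942.2 TPM. Of the markers for T cells, B cells, neutrophils, fibroblasts and epithelial cells, 7 of 20 were in the table. Among these the T cell kinase Lck reached 7.01 TPM, and the other 6 stayed at or below 1.05 TPM.

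The first comparison asked how MTOB changed the members in wildtype cells. Slfn2, Slfn5 and Slfn8 rose, and Slfn4 was higher by an amount just under the fold limit. A gene was called at a Benjamini-Hochberg adjusted p below 0.05 over 16383 genes and a fold change above 1.5 on log2(TPM + 1), which is 0.585 in log2 units. By this rule 3 of 6 members rose, against 1.56% of all genes tested. The median log2 fold change was 0.66 for the 6 members and -0.01 for all genes.

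Slfn2 was at 7.68, 8.28 and 10.7 TPM in wildtype vehicle and at 28.9, 31.7 and 31.7 TPM in wildtype MTOB samples. The lowest MTOB sample thus lay above the highest vehicle sample by more than the whole range of either group. The log2 fold change was 1.70 (SE 0.16, 95% interval 1.36 to 2.03) with an adjusted p of 4.26e-06 (limma), the largest among the members. Slfn5, a long member with roles in interferon responses, was at 3.20, 2.57 and 1.97 TPM with vehicle and at 7.18, 7.59 and 6.33 TPM with MTOB. The groups did not overlap, and the log2 fold change was 1.18 (SE 0.13) with an adjusted p of 4.09e-05 (limma). Slfn8 was at 9.48, 7.80 and 8.42 TPM with vehicle and at 15.4, 14.4 and 15.3 TPM with MTOB, again without overlap. Its log2 fold change was 0.75 (SE 0.15) with an adjusted p of 0.00493 (limma). With a pseudocount of 5 in place of 1 the Slfn8 change was 0.56 and below the fold limit.

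Slfn4 was at 25.1, 26.0 and 24.1 TPM with vehicle and at 41.7, 38.4 and 33.7 TPM with MTOB. All MTOB samples were higher than all vehicle samples, and the log2 fold change of 0.57 (SE 0.08) had an adjusted p of 0.000157 (limma) but was 1.49-fold and so not called. It passed the fold limit without wildtype vehicle replicate 2 (0.60) or without wildtype MTOB replicate 3 (0.66), with a pseudocount of 0.1 (0.59) and after rescaling by size factors (0.59), so that 4 members were called. Slfn3, of the same length group as Slfn4, had a log2 fold change of 0.32 (95% interval 0.09 to 0.55, adjusted p 0.0933, limma). Its samples with vehicle (15.4, 13.4 and 16.9 TPM) and with MTOB (16.9, 21.2 and 19.7 TPM) overlapped by a small margin. Slfn9 had a log2 fold change of 0.25 (95% interval 0.02 to 0.47, adjusted p 0.228, limma), with 17.3, 16.9 and 17.7 TPM in vehicle and 22.0, 18.8 and 21.4 TPM in MTOB samples. The Slfn9 groups did not overlap. The summed macrophage markers were at 2772 to 2862 TPM in wildtype vehicle and 3318 to 3493 TPM in wildtype MTOB samples. Within that list Adgre1, which encodes F4/80, and the lipopolysaccharide co-receptor Cd14 rose with log2 fold changes of 1.79 and 0.86 (adjusted p 1.01e-05 and 1.18e-06, limma). Of the 9 tested markers, 7 had values above 0 and 2 below, and 0 were called lower, against 0.452% of all genes. Csf1r was lower with MTOB (727.1 to 795.1 TPM) than with vehicle (845.3 to 942.2 TPM). Ptprc was also lower, at 64.61 to 68.31 against 69.87 to 72.02 TPM. The part of these markers in the Schlafen values was not tested.

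In dKO cells the question was whether the members still responded to MTOB. Slfn2 rose, and the other 5 tested members did not pass the test. This call of 1 of 6 members stands against 1.15% of all genes called higher, and the median log2 fold change was 0.22 for the members and -0.01 for all genes. Slfn2 was at 22.4, 16.9 and 22.4 TPM in dKO vehicle and at 36.9, 38.5 and 46.4 TPM in dKO MTOB samples. The groups did not overlap, and the log2 fold change was 0.95 (SE 0.16, 95% interval 0.62 to 1.29) with an adjusted p of 0.00136 (limma). When the fit held only these 2 groups the adjusted p was 0.0546 and 0 members were called.

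Slfn5 was at 11.6, 8.45 and 10.3 TPM with vehicle and at 13.1, 13.8 and 14.6 TPM with MTOB in dKO cells. These groups did not overlap either, but the log2 fold change of 0.43 (95% interval 0.14 to 0.71) had an adjusted p of 0.0782 (limma). Slfn8 was at 16.8, 13.0 and 16.0 TPM with vehicle and at 13.8, 18.9 and 20.3 TPM with MTOB, with overlap. Slfn4 was at 33.1, 34.8 and 37.4 TPM with vehicle and at 38.1, 36.4 and 39.7 TPM with MTOB, also with overlap. The log2 fold changes were 0.19 for Slfn8 (95% interval -0.13 to 0.50), 0.12 for Slfn4 (-0.05 to 0.28), 0.25 for Slfn3 (0.02 to 0.48) and 0.13 for Slfn9 (-0.09 to 0.36). The dKO samples of Slfn3 were at 16.8, 16.0 and 16.7 TPM with vehicle and at 19.1, 21.6 and 18.9 TPM with MTOB, without overlap, and its adjusted p was 0.208 (limma). Those of Slfn9 were at 23.7, 18.9 and 21.3 TPM and at 20.3, 23.2 and 27.0 TPM, with overlap. The summed macrophage markers of 2514 to 2582 TPM in dKO vehicle and 2605 to 2927 TPM in dKO MTOB samples did not overlap, and their part in the values was not tested.

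The difference between the 2 MTOB effects was tested as an interaction, which asks whether a response depends on the genotype. None of the 6 members passed an adjusted p below 0.05 (limma), and 0.0916% of all genes did. At an unadjusted p below 0.05, 4 of 6 members passed, against 6.89% of all genes. These 4 were Slfn5, Slfn2, Slfn8 and Slfn4, and in each the fitted effect was larger in wildtype cells. Taken as wildtype minus dKO in log2 units, the difference was 0.75 for Slfn5 (95% interval 0.35 to 1.16, adjusted p 0.283) and 0.74 for Slfn2 (0.27 to 1.22, adjusted p 0.416, limma). It was 0.56 for Slfn8 (0.11 to 1.00, adjusted p 0.63) and 0.46 for Slfn4 (0.23 to 0.69, adjusted p 0.188, limma). For Slfn9 and Slfn3 the differences were 0.11 (-0.21 to 0.43) and 0.07 (-0.25 to 0.39). The Slfn5 difference ran from 0.35 to 0.98 under other pseudocounts, filters, variance models, scalings, fits and a replicate block. The Slfn2 difference ran from 0.53 to 0.81. The lowest adjusted p among these alternatives were 0.155 for Slfn5 and 0.337 for Slfn2 (limma). A smaller MTOB effect in dKO cells was therefore not established for any single member, although Slfn5 and Slfn8 passed the test in only 1 of the genotypes.

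**Figure D2:**
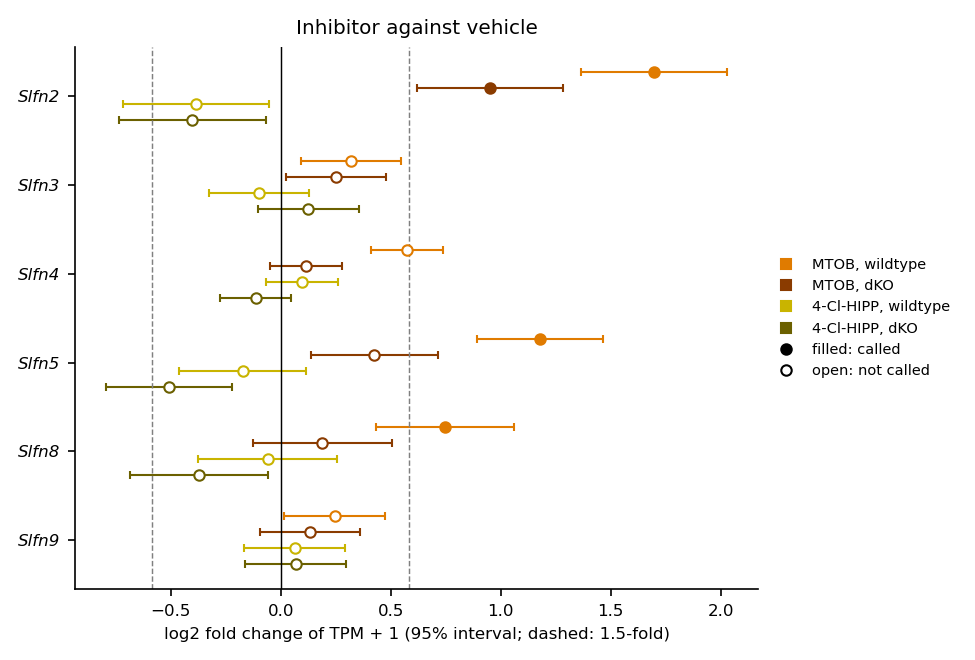
Log2 fold change of TPM + 1 against vehicle for the 6 tested members, with 95% intervals, for each inhibitor in each genotype; dashed lines mark 1.5-fold and filled points are called. Slfn2 was called with MTOB in both genotypes (1.70 and 0.95), Slfn5 and Slfn8 in wildtype cells alone, and no member with 4-Cl-HIPP.

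With 4-Cl-HIPP no member rose or fell by the same rule in either genotype. In wildtype cells 0 of 6 members were called by limma, against 0.14% of all genes called in either direction, and 1 of 6 had an unadjusted p below 0.05, against 8.19% of all genes. This was Slfn2, at 5.12, 7.96 and 6.69 TPM with 4-Cl-HIPP, which overlapped the vehicle samples at their lower end. Its log2 fold change was -0.38 (95% interval -0.72 to -0.05) with an adjusted p of 0.519 (limma). The other 5 members had log2 fold changes between -0.17 for Slfn5 and 0.10 for Slfn4, and each overlapped its vehicle samples.

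In dKO cells 0 of 6 members were called with 4-Cl-HIPP by limma, against 0.153% of all genes, and 3 of 6 had an unadjusted p below 0.05, against 8.47% of all genes. Slfn5 was at 6.57, 8.09 and 5.79 TPM with 4-Cl-HIPP, all below the lowest vehicle sample at 8.45 TPM. The log2 fold change was -0.51 (95% interval -0.79 to -0.22) with an adjusted p of 0.151 (limma). Slfn8 was at 12.3, 11.3 and 10.9 TPM, also below every vehicle sample, with a log2 fold change of -0.37 (-0.69 to -0.06) and an adjusted p of 0.469 (limma). Slfn2 was at 13.5, 17.5 and 14.8 TPM, which overlapped the vehicle samples, with a log2 fold change of -0.40 (-0.74 to -0.07) and an adjusted p of 0.454 (limma). Slfn3, Slfn4 and Slfn9 had log2 fold changes of 0.13, -0.11 and 0.07. The Slfn3 samples with 4-Cl-HIPP (18.1, 17.3 and 19.0 TPM) all lay above the highest vehicle sample at 16.8 TPM, with an adjusted p of 0.843 (limma). Slfn4 and Slfn9 overlapped their vehicle samples. The 4-Cl-HIPP effect differed between genotypes for 0 of 6 members (limma), with 0.0% of all genes passing. At an unadjusted p below 0.05 it differed for no member (limma), and for 734 of all 16383 genes tested. The largest such difference, wildtype minus dKO, was 0.33 for Slfn5 (95% interval -0.07 to 0.74), and the others ran from -0.22 for Slfn3 to 0.31 for Slfn8.

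The genotypes were then compared under each treatment, which asks how the members differ when both Ctbp genes are disrupted. Under vehicle Slfn5, Slfn2 and Slfn8 were higher in dKO than in wildtype cells. These 3 of 6 members passed the rule, against 3.28% of all genes called higher, and the medians were 0.62 for the members and 0.01 for all genes. This comparison and the MTOB comparison in wildtype cells share the 3 wildtype vehicle samples, so their values for the members are not independent. Slfn5 was at 11.6, 8.45 and 10.3 TPM in dKO and at 3.20, 2.57 and 1.97 TPM in wildtype samples. All dKO samples exceeded all wildtype samples, and the log2 fold change of 1.64 (SE 0.13, 95% interval 1.35 to 1.93) had an adjusted p of 5.69e-07 (limma). Slfn2 had a log2 fold change of 1.13 (SE 0.16) with an adjusted p of 0.000124, and Slfn8 of 0.76 (SE 0.15) with an adjusted p of 0.00252 (limma). With a pseudocount of 5 the Slfn8 value was 0.58 and below the fold limit. Slfn4 was higher by 0.47 in log2 units (SE 0.08) with an adjusted p of 0.000537 (limma), which was below the fold limit, and its samples did not overlap. For Slfn9 and Slfn3 the log2 fold changes were 0.28 (95% interval 0.05 to 0.51) and 0.12 (-0.11 to 0.34).

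Under MTOB Slfn5 alone was called higher in dKO cells, 1 of 6 members against 3.33% of all genes. Its samples were at 13.1, 13.8 and 14.6 TPM in dKO and at 7.18, 7.59 and 6.33 TPM in wildtype cells. The log2 fold change was 0.89 (SE 0.13) with an adjusted p of 0.00031 (limma). Slfn2 was at 36.9 to 46.4 TPM in dKO and 28.9 to 31.7 TPM in wildtype cells, without overlap, and its log2 fold change of 0.38 (95% interval 0.05 to 0.72) had an adjusted p of 0.15 (limma). Slfn8 had a log2 fold change of 0.20 (-0.11 to 0.52), and Slfn4 one of 0.01 (-0.15 to 0.17) that took the other sign after rescaling. For Slfn9 and Slfn3 it was 0.17 (-0.06 to 0.40) and 0.05 (-0.18 to 0.27), with overlapping samples. Under 4-Cl-HIPP Slfn5 and Slfn2 were called higher in dKO cells, 2 of 6 members against 3.14% of all genes. The log2 fold change was 1.30 (SE 0.13) for Slfn5 and 1.11 (SE 0.16) for Slfn2, with adjusted p of 6.39e-06 and 0.000147 (limma). Slfn8 had a log2 fold change of 0.45 (95% interval 0.13 to 0.76) and an adjusted p of 0.0712 (limma). Slfn4 was at 0.26 (0.10 to 0.42), below the fold limit, with an adjusted p of 0.0414 (limma). Slfn3 was at 0.34 (0.11 to 0.57) and Slfn9 at 0.28 (0.06 to 0.51), with adjusted p of 0.0589 and 0.124 (limma). For each of these members all dKO samples lay above all wildtype samples under 4-Cl-HIPP. The share of all genes separated in this way was not counted, here or in the other comparisons. In all 3 comparisons between genotypes the macrophage marker Itgam, which encodes CD11b, was higher in dKO cells and Adgre1 and Cd14 were lower. Under vehicle their log2 fold changes were 1.57, -1.59 and -1.67 (adjusted p 2.26e-05, 1.49e-05 and 2.31e-10, limma). Of the 9 tested macrophage markers, 2 were called higher and 2 lower under vehicle, against 3.28% and 1.55% of all genes. The marker Fcgr1 had a higher mean in dKO (52.29 TPM) than in wildtype vehicle samples (33.25 TPM). The summed markers were at 2772 to 2862 TPM in wildtype and 2514 to 2582 TPM in dKO vehicle samples. Their part in the Schlafen values was not tested. In these bulk samples a different number of expressing cells and a different amount of RNA per cell cannot be told apart.

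**Figure D3:**
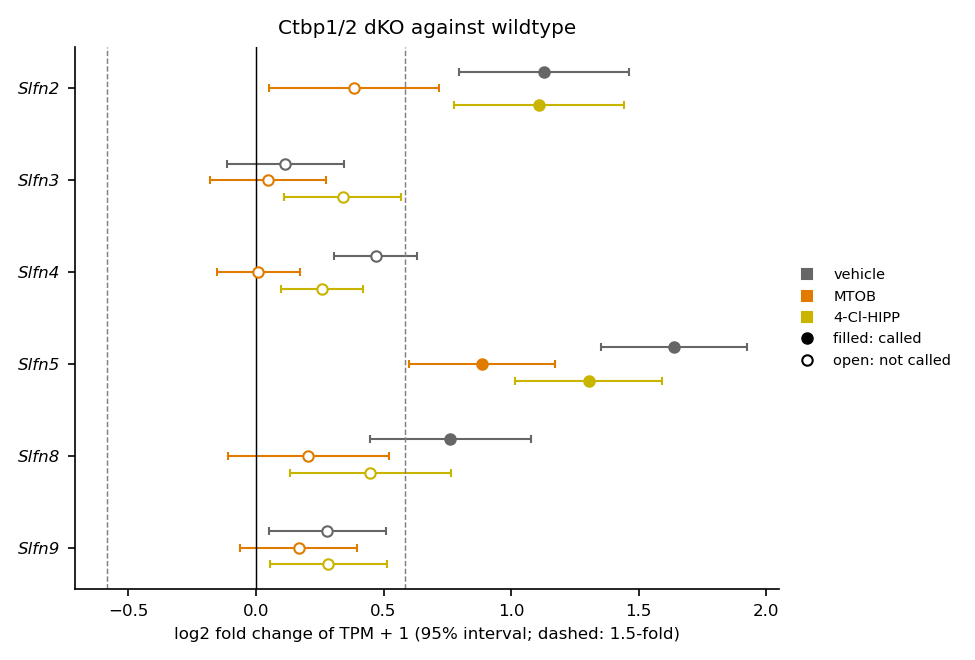
Log2 fold change of TPM + 1 in dKO against wildtype cells for the 6 tested members, with 95% intervals, under each treatment; dashed lines mark 1.5-fold and filled points are called. Slfn5 was called under all 3 treatments (1.64 with vehicle, 0.89 with MTOB and 1.30 with 4-Cl-HIPP), Slfn2 under vehicle and 4-Cl-HIPP, and Slfn8 under vehicle.

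The order of the 6 groups differed among the members. For Slfn2 the mean fell from dKO MTOB (40.6 TPM) over wildtype MTOB (30.8), dKO vehicle (20.6), dKO 4-Cl-HIPP (15.3) and wildtype vehicle (8.87) to wildtype 4-Cl-HIPP (6.59 TPM). Of its neighbours in this order, dKO vehicle and dKO 4-Cl-HIPP overlapped, as did wildtype vehicle and wildtype 4-Cl-HIPP, and the others did not. For Slfn5 the 3 dKO groups had the 2 highest means and the fourth, in the order dKO MTOB (13.8 TPM), dKO vehicle (10.1), wildtype MTOB (7.03), dKO 4-Cl-HIPP (6.82), wildtype vehicle (2.58) and wildtype 4-Cl-HIPP (2.15). Wildtype MTOB and dKO 4-Cl-HIPP overlapped for Slfn5, and so did the last pair. Vehicle-treated dKO cells thus lay below MTOB-treated wildtype cells for Slfn2 and above them for Slfn5, in both cases without overlap of the samples. For Slfn8 wildtype MTOB (15.0 TPM) and dKO vehicle (15.3 TPM) overlapped, and for Slfn4 the 3 groups dKO MTOB (38.1), wildtype MTOB (37.9) and dKO vehicle (35.1 TPM) did.

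The interferon pathway was described with a list of 43 interferon-induced genes, of which 41 were tested, and a list of 22 genes of interferon signalling, of which 18 were tested. Usp18 and Irf7 are on both lists. Secreted interferon binds receptors whose kinases activate transcription factors, and these switch on the induced genes. In wildtype cells MTOB raised 11 of 41 induced genes, against 1.56% of all genes, and lowered 0, with a median log2 fold change of 0.47. By adjusted p the first 3 were Usp18, a brake on the interferon receptor (1.58), Parp14, an ADP-ribosyltransferase (0.99), and Eif2ak2, the kinase PKR that senses double-stranded RNA (0.73). In dKO cells, where the median was 0.22, MTOB raised 2 of 41 and lowered 0, against 1.15% and 0.476% of all genes. These were the antiviral genes Rsad2 and Ifit3, with log2 fold changes of 1.10 and 1.15. The interaction passed for 0 of 41 at an adjusted p below 0.05 and for 16 at an unadjusted p below 0.05 (limma). Of all genes, 0.0916% and 6.89% passed.

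With 4-Cl-HIPP few of the induced genes were called, and most had values below 0. In wildtype cells 1 of 41 was called lower, against 0.0305% of all genes. This was Oasl1, an inhibitor of Irf7 translation (log2 fold change -0.75, adjusted p 0.0449, limma). Values were below 0 for 31 and above 0 for 10, with a median of -0.15, and 9 of 41 had an unadjusted p below 0.05, against 8.19% of all genes. In dKO cells 0 of 41 were called (limma), against 0.153% of all genes, and 12 had an unadjusted p below 0.05, against 8.47%. There 35 values were below 0 and 6 above, with a median of -0.19. Over all genes tested the medians were 0.01 in wildtype and 0.00 in dKO cells. Between the genotypes 29 of 41 were called higher in dKO cells under vehicle, 23 under MTOB and 27 under 4-Cl-HIPP, and 0 were called lower. The shares of all genes called higher were 3.28%, 3.33% and 3.14%, and those called lower were 1.55%, 1.62% and 1.58%. The first 3 induced genes under vehicle were Usp18 (2.15), the interferon-regulatory factor Irf7 (2.20) and Oas3, an oligoadenylate synthetase (1.52). Under MTOB they were Rsad2 (3.09), Ifi27l2a (1.54) and Oasl1 (1.36), and under 4-Cl-HIPP Oas3 (1.77), Rtp4 (2.35) and Usp18 (1.96). The medians of the induced genes were 0.95, 0.80 and 0.91.

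Of the 18 signalling genes tested, 3 rose with MTOB in wildtype cells, against 1.56% of all genes. These 3 were Irf8, a transcription factor of the myeloid lineage (0.90), Usp18 (1.58) and Irf7 (1.13). None was called with MTOB in dKO cells (limma), against 1.15% of all genes called higher. There 7 of 18 had an unadjusted p below 0.05 (limma), and so did 3118 of all 16383 genes tested. In dKO against wildtype cells under vehicle the receptor-associated kinase Jak2 (2.62), Usp18 (2.15), Irf7 (2.20) and the interferon-regulatory factor Irf9 (0.69) were higher. Under MTOB Jak2 (2.24), Irf1 (0.95), Usp18 (1.08) and Irf7 (1.22) were higher and Irf8 (-0.88) was lower. Under 4-Cl-HIPP Jak2 (2.64), Usp18 (1.96), Irf7 (2.15), Irf9 (0.67) and Irf1 (0.88) were higher. The ligand gene Ifnb1 was listed at 0 TPM in all wildtype samples and in the dKO 4-Cl-HIPP samples. In dKO vehicle and dKO MTOB samples it ranged from 0 to 1.04 and from 0 to 1.30 TPM. Its log2 fold change did not pass the test in any of the 9 comparisons.

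**Figure D4:**
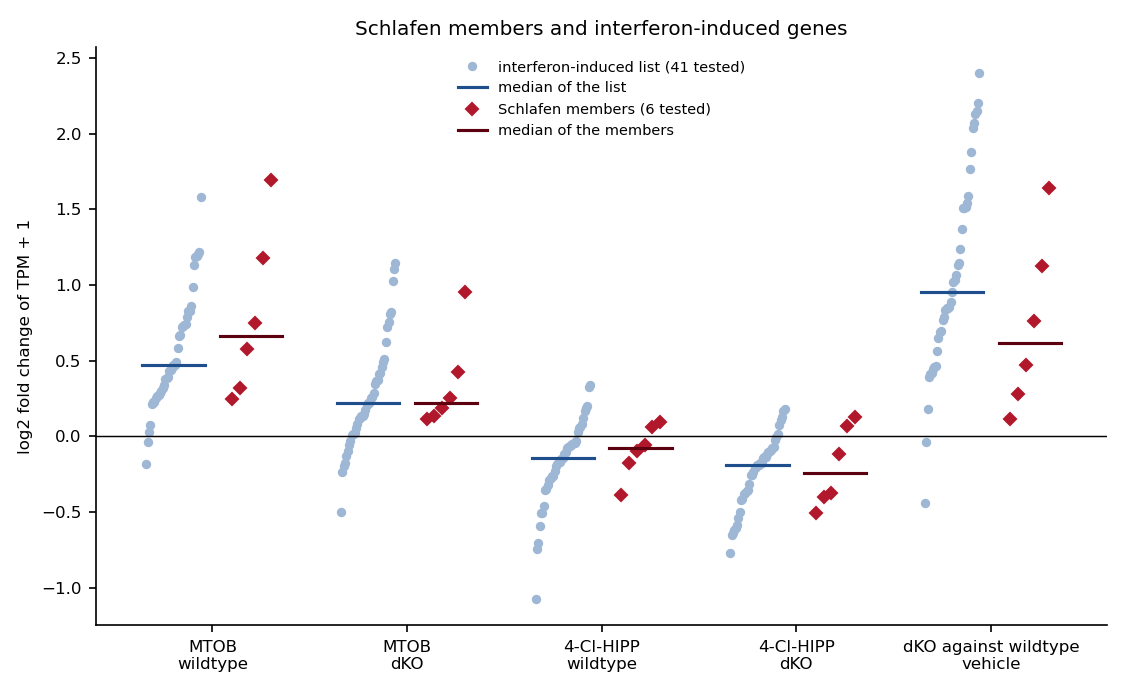
Log2 fold change of TPM + 1 for the 41 tested interferon-induced genes (blue points) and the 6 tested Schlafen members (red diamonds) in 5 comparisons, each sorted by value; lines are medians. The medians of list and members were 0.47 and 0.66 for MTOB in wildtype cells, 0.22 and 0.22 for MTOB in dKO cells, and 0.95 and 0.62 for dKO against wildtype cells under vehicle.

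The genes whose pattern was most like that of each member were found by Pearson's r of log2(TPM + 1) over the 18 samples among 11043 genes. All points share the same libraries, and r is given as a description. For Slfn5 they were Usp18 (r = 0.986), Parp14 (0.982) and Irgm1 (0.980). For Slfn8 they were Adar (0.955), Helz2 (0.951) and Parp14 (0.937), and for Slfn2 they were Cd44 (0.967), Myo1d (0.960) and Ptprj (0.958). Myo1d (0.934) also led the genes like Slfn4, before Eif2ak2 (0.922) and Pik3ap1 (0.912). The genes most like Slfn9 were Sh3bgrl2 (0.90), Abcc4 (0.890) and Hipk3 (0.889), and those most like Slfn3 were Rab20 (0.909), Lrrc25 (0.878) and Hs6st1 (0.847). Between the members themselves r ran from 0.595 for Slfn3 and Slfn9 to 0.902 for Slfn5 and Slfn8.

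The annotation places 30 other genes among the members and as the 5 named coding genes on each side, and 11 of these were tested. Of the 7 tested flanking genes 0 were called (limma) in any of the 4 inhibitor comparisons or in dKO against wildtype cells under vehicle. Of all genes, 1.56% were called higher with MTOB in wildtype cells and 3.28% between genotypes under vehicle. The log2 fold changes of the flanking genes ran from -0.34 to 0.34 with MTOB in wildtype cells and from -0.33 to 0.48 between genotypes under vehicle. Among them Rasl10b and Gas2l2 averaged 0.062 and 0.021 TPM, where the pseudocount of 1 left little room for a call. Of the 4 tested genes between the members, 1 was called, the relative listed as Slfn10-ps, which is named Slfn10 in GENCODE M39. It was at 3.16 TPM ± 0.61 (SD, n = 3) in wildtype vehicle and 6.24 ± 0.61 in wildtype MTOB samples, and its log2 fold change was 0.81 with an adjusted p of 0.00765 (limma).

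**Figure D5:**
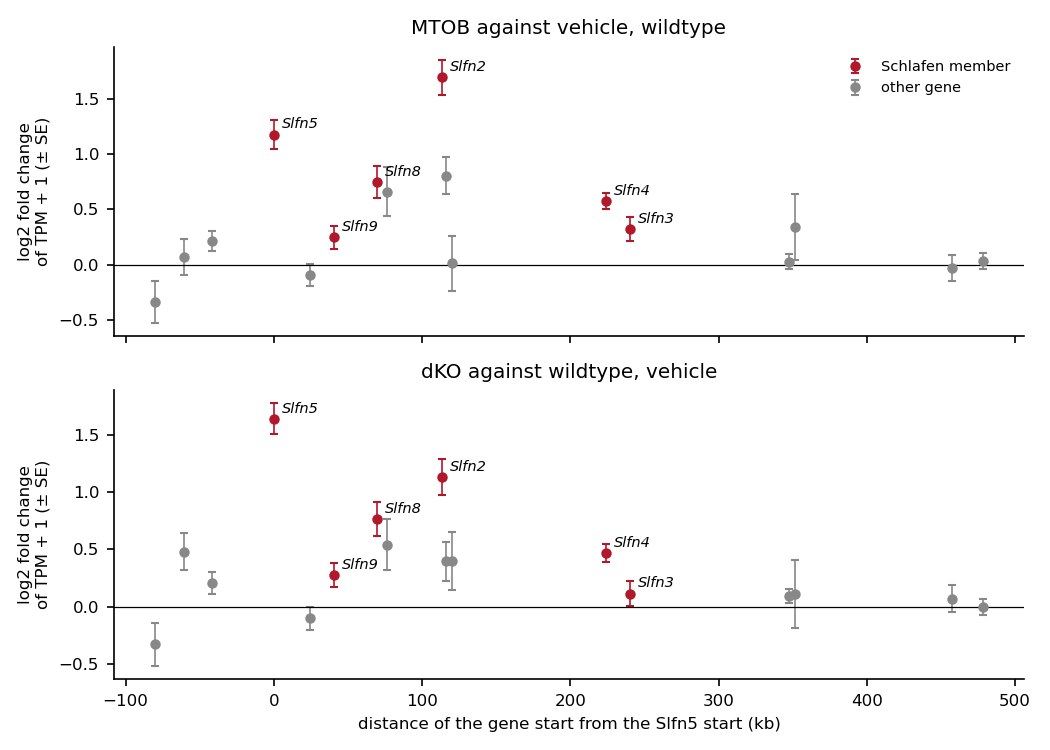
Log2 fold change of TPM + 1 (points, with SE) of the tested genes in and around the Schlafen stretch against the distance of their start from that of Slfn5 in kb, with MTOB in wildtype cells (top) and in dKO against wildtype cells under vehicle (bottom). The flanking genes lay between -0.34 and 0.34 in the upper panel, while Slfn2 and Slfn5 were at 1.70 and 1.18.

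The members share sequence with each other and with overlapping genes. The sharing was measured in GENCODE M39, while the authors assigned reads to GENCODE M28, which was not analysed here. Of the distinct 31-base words in the transcripts, 9.88% were also found in other genes for Slfn2, 18.9% for Slfn4, 21.1% for Slfn3, 24.1% for Slfn5, 24.2% for Slfn9 and 43.1% for Slfn8. For Slfn5 most of this was the antisense transcript Slfn5os, which overlaps 19.8% of its exonic bases, and for Slfn8 it was mainly Gm74281, with 26.7% of exonic bases overlapped by Gm74280 and Gm74281. The library kit did not keep the strand, so reads from these partners cannot be told apart from those of the member where they overlap, and which of these partners were in the reference used for assignment was not tested. For Slfn2 0.0% of the exonic bases overlapped another gene.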

How the data were processed

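The authors sequenced RNA of 18 J774.1 samples on an Illumina NovaSeq after preparing libraries with an unstranded TruSeq mRNA kit. The authors quantified transcripts with Salmon 1.9.0 on the Gencode M28 transcriptome of GRCm39 with GC correction, imported gene estimates with tximport and normalized them, as the authors state, with DESeq2 1.44.0. The labels name polyA RNA, and the methods name rRNA depletion. The deposited table of 18204 genes holds TPM per gene and sample, computed by the authors, and 1 further signal for every gene, its normalized count averaged over the samples, which the authors obtained with DESeq2. TPM summed to between 999766 and 999897 per sample, so the depth is unknown, and TPM of a gene depends on all other genes. The log2 fold changes and adjusted p-values that the authors deposited for 4 comparisons were not used.

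Groups were taken from the genotype and treatment labels, with 3 replicates each. Genes were kept if that averaged count exceeded its 10th percentile (0.222), and the 16383 kept genes were fitted on log2(TPM + 1) with limma 3.58.1 in R 4.3.3, with 6 group means over all 18 samples and a variance trend on the averaged count. Fold changes are on this scale, on which the pseudocount of 1 understates changes of low genes. P-values were two-sided and adjusted by Benjamini-Hochberg over all genes of each of the 9 comparisons. A call needed an adjusted p below 0.05 and a fold change above 1.5, and for the interactions an adjusted p below 0.05 alone. The fit was tested on simulated data for MTOB against vehicle in wildtype cells with 16383 genes, where it recovered 96% of 200 genes changed 2-fold, of a mean count of at least 50, with 7.4 false calls per run over 5 runs. The simulated counts had a dispersion (a measure of spread between replicates) of 0.01, and recovery at a larger spread was not tested.

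The members and gene lists were chosen with earlier results of these data known. By the rule all 7 members were described in every comparison, with Slfn1, which was not tested, by its levels alone and members with small values in some comparisons as a range. The targeted genes, the 3 induced genes and all signalling genes called where a member was called (ordered by adjusted p), the 3 genes most like each member and the genes around the members were named as well, except that 1 item is not reported here. Of the induced and signalling genes, Ifnb1, Rsad2 and Ifit3 with MTOB in dKO cells, Oasl1 with 4-Cl-HIPP and the macrophage markers were named after their values were seen where that rule did not name them. Likeness used genes whose averaged count was 10 or more. Promoter windows came from RefSeq on GRCm38.p6 and were located in GRCm39 by exact match. Alternatives were other pseudocounts, filters, variance models, scalings and fits, a replicate block, and leaving out each sample.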

Additional observations from a re-analysis of the deposited data

How the results depend on the processing

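Of the member counts, 1 moved by more than 1.5 times under the alternatives. It was MTOB in dKO cells, with 0 members called when only the compared groups were fitted (Slfn2 adjusted p 0.0546, limma), a fit with fewer samples. Fold changes that took the other sign were small: -6e-04 for Slfn4 in dKO against wildtype cells under MTOB after rescaling, and -0.0085 for Slfn2 in the 4-Cl-HIPP interaction with a pseudocount of 0.1. When each sample was left out in turn, sign changes were met in 8 member values, which ranged from -0.17 to 0.11 for Slfn8 and -0.027 to 0.14 for Slfn9 with 4-Cl-HIPP in wildtype cells, from -0.012 to 0.14 for Slfn9 with 4-Cl-HIPP in dKO cells, from -0.042 to 0.12 for Slfn3 and -0.071 to 0.078 for Slfn4 in dKO against wildtype cells under MTOB, from -0.013 to 0.16 for Slfn3 in the MTOB interaction, and from -0.11 to 0.16 for Slfn2 and -0.095 to 0.077 for Slfn9 in the 4-Cl-HIPP interaction. No called member lost its call when a sample was left out. A pseudocount of 5 lowered the genes called from 329 to 185 with MTOB in wildtype cells, from 267 to 131 with MTOB in dKO cells and from 792 to 426 between genotypes under vehicle, from 811 to 420 under MTOB and to 425 under 4-Cl-HIPP. With 4-Cl-HIPP against vehicle it lowered them from 23 to 6 in wildtype and from 25 to 13 in dKO cells. With only the compared groups fitted, 135 genes were called with MTOB in dKO cells, 15 and 7 with 4-Cl-HIPP in wildtype and dKO cells, and 2 in the 4-Cl-HIPP interaction. Leaving out 1 sample lowered the genes called to 9 for 4-Cl-HIPP in wildtype cells (without wildtype 4-Cl-HIPP replicate 2), to 12 in dKO cells (without dKO 4-Cl-HIPP replicate 1) and to 7 for the MTOB interaction (without dKO vehicle replicate 3). Replicate numbers did not pair the samples (same-numbered deviations correlated with r from -0.141 to 0.091, and 2 of 18 samples matched their own number best). With the number as a replicate block, 3 members were called with MTOB in wildtype cells, 1 in dKO cells and 3 between genotypes under vehicle, and 319 genes in all with MTOB in wildtype cells. The MTOB interaction gave 8 genes in place of 15 under that block, and 6 without a variance trend. The cause of these shifts was not tested. Without counts the depth behind each TPM is unknown, which limits low values such as those of Slfn1 and Ifnb1.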

Other observations

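The relative Slfn10-ps, which is no member by the rule, was at 4.46 TPM ± 0.56 (SD, n = 3) in dKO vehicle, 6.62 ± 0.50 in dKO MTOB and 4.13 ± 0.70 in dKO 4-Cl-HIPP samples. The MTOB effect on it in dKO cells was 0.48 in log2 units and had an adjusted p of 0.114 (limma), and the processed pseudogene Gm11425, which lies next to it, had a value of 0.66 in log2 units for MTOB in wildtype samples (adjusted p 0.0937, limma). Of the 31-base words of the Slfn10 transcripts, 36.6% were also found in other genes. The largest partner was Slfn9, with 20.0%. The part of this sharing in the Slfn10-ps values was not tested.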
